A study of Danio rerio with 24 samples.

Results

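The earliest transcriptional response to TP-0903 was read from the 8 RNA-Seq libraries made after 1 h of treatment, 4 from TP-0903-treated embryos and 4 from DMSO-treated embryos, out of 24 libraries in all. They were chosen by the treatment and the time in their labels, and no measured value entered the choice. Each library held the RNA of 35 pooled whole zebrafish embryos labelled with the strain Tg(snail1b:GFP), a GFP reporter of the EMT factor snai1b that all groups shared. Treatment began at 13 hpf (8 somites), and embryos were collected at 14 hpf (10 somites). The controls received DMSO, the solvent of the compound. Libraries of the same treatments after 4 h (17 hpf, 16 somites) and after 8 h (19.5 hpf, 21 somites), 8 for each time, were used only to follow genes that stood out at 1 h. TP-0903 was designed as an inhibitor of a TAM family receptor tyrosine kinase and also blocks other kinases such as Aurora A, JAK2 and ABL1. Its concentration in these experiments is not given in the sources used here.

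Retinoic acid (RA) is made from retinol in successive oxidation steps, by retinol dehydrogenases and then by retinaldehyde dehydrogenases, and it is broken down by Cyp26 enzymes. It binds RA receptors, which pair with retinoid X receptors on DNA, and among the genes they activate are some that limit RA itself, such as cyp26a1 and dhrs3. In the early embryo RA patterns the hindbrain and trunk, where it acts on Hox genes of the 3′ end of the clusters, while FGF signaling dominates in the tailbud. Immediate early and feedback genes, which follow ERK, STAT or stress signaling within minutes, are the usual first readout of a kinase inhibitor.

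The RA-degrading enzyme gene cyp26a1 ranked first in the 1 h comparison, and nrip1a and dhrs3b, also from the RA lists, were among the 10 genes with the smallest p. Of these 10, 9 were higher with TP-0903 and 1, a copy of Metazoa_SRP, was lower. The others were SLC22A3, prickle1b, znf503, tsc22d3, znf703 and dact2. The level of each gene is given as CPM (counts scaled to library size after TMM normalization), and a log2 fold change is TP-0903 over DMSO. edgeR's quasi-likelihood test called no gene of 15530 at an adjusted p under 0.05 (0%). At an unadjusted p under 0.05 it gave 214 genes, 1.38% of those tested, of which 112 were higher (0.721%) and 102 lower (0.657%). The smallest adjusted p was 0.0635, for cyp26a1. DESeq2 called 13 of the 8748 genes to which it gave an adjusted p (0.149%). All 13 were higher in every TP-0903 library than in any DMSO library, against 0.786% of all tested genes. They were picked on these same libraries, so this separation is no independent support. Limma voom called 1 gene, cyp26a1. In whole embryos, more cells that express a gene and more RNA per cell cannot be told apart.

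Libraries of 1 treatment were widely spread at 1 h. After the mean of each treatment was subtracted, 1 principal component took up 70.8% of what remained at 1 h and 37.5% at 4 h. Its score was -25.3, -26.2, -15.2 and 66.7 in DMSO replicates 1 to 4, and 20.7, -38.3, 56.1 and -38.6 in TP-0903 replicates 1 to 4. DMSO replicate 4 and TP-0903 replicate 3 thus lay at 1 end, with TP-0903 replicate 1 between them and the others. The common coefficient of variation between libraries, beyond counting error, was 0.259 at 1 h and 0.136 at 4 h. Total counts were between 3879310 and 7663030 in DMSO libraries and between 5254559 and 10536420 in TP-0903 libraries. The mean total was 5003363 with DMSO and 8228248 with TP-0903, a difference with p = 0.0571 in an exact two-sided permutation test of 4 libraries against 4, where the smallest possible p is 0.0286. With this component as a covariate, edgeR called 30 genes, 26 of them higher. Without DMSO replicate 4 and TP-0903 replicate 3 it called 5, all higher. The covariate came from the deviations of these same libraries, and the libraries left out were those at its high end. Neither count is therefore independent support for the genes called.

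Among the enzymes that remove RA, cyp26a1, which oxidizes RA for its breakdown, showed the highest log2 fold change of all tested genes. Its CPM was 45, 41.9, 42.9 and 92.3 in DMSO replicates 1 to 4 and 461, 441, 292 and 361 in TP-0903 replicates 1 to 4. Every TP-0903 library was above every DMSO library, and the closest pair was DMSO replicate 4 and TP-0903 replicate 3, the libraries at the high end of the component. The mean was 55.5 ± 24.5 CPM (SD, n = 4) with DMSO and 389 ± 77.4 CPM (SD, n = 4) with TP-0903. The fitted difference was 7.02-fold, or 2.81 on the log2 scale (standard error 0.29), and the adjusted p was 0.0635 by edgeR and 1.57e-16 by DESeq2. On the length-normalized scale of the deposited tables, cyp26a1 was at 29.1 ± 10.8 FPKM (SD, n = 4) with DMSO and 205 ± 45.2 FPKM (SD, n = 4) with TP-0903. The paralogues, which break down RA in other domains of the embryo, stood apart from it. cyp26c1 was at 21.3 ± 0.64 FPKM (SD, n = 4) and 21.9 ± 0.51 FPKM (SD, n = 4), and its log2 fold change was 0.06. For cyp26b1 the log2 fold change was -0.14.

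Both dhrs3 genes, which code for retinaldehyde reductases and so draw the RA precursor back to retinol, were higher with TP-0903. The CPM of dhrs3b was 23.2, 20.7, 27.6 and 50.8 in DMSO replicates 1 to 4 and 87.3, 99.6, 70.9 and 84.7 in TP-0903 replicates 1 to 4. Its groups did not overlap, and the closest libraries were again DMSO replicate 4 and TP-0903 replicate 3. The fitted log2 difference was 1.49 (standard error 0.27), and the adjusted p was 0.832 by edgeR and 9.62e-04 by DESeq2. The CPM of dhrs3a was 9.25, 8.39, 9.06 and 24.3 with DMSO and 24.4, 35.6, 20.3 and 25.9 with TP-0903. Here DMSO replicate 4 reached the range of the treated libraries, so the groups overlapped, and neither edgeR nor DESeq2 called the gene. Its log2 fold change was 1.08 (standard error 0.35). Without DMSO replicate 4 and TP-0903 replicate 3, edgeR called dhrs3a and dhrs3b as well as cyp26a1. For each of these genes those libraries were the highest control and the lowest treated one, so leaving them out widened the difference.

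**Figure D1:**
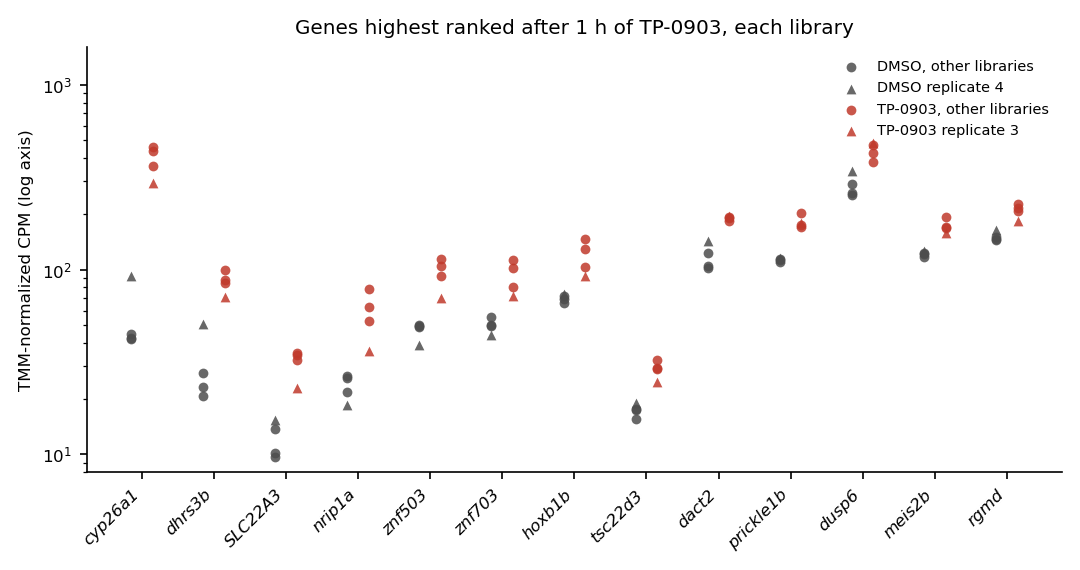
CPM (log axis) of the 13 genes that DESeq2 called at 1 h, with each DMSO library in grey and each TP-0903 library in red, and triangles for DMSO replicate 4 and TP-0903 replicate 3. In all 13 genes, which were picked on these same libraries, the 4 TP-0903 libraries sit above the 4 DMSO libraries. The widest gap is that of cyp26a1 (41.9 to 92.3 CPM against 292 to 461 CPM).

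Genes that make and carry RA differed less. Of 30 tested members of the retinoid pathway list, 4 had an unadjusted p under 0.05 (13.3%, against 1.38% of all tested genes). All 4 were higher: cyp26a1, dhrs3b, dhrs3a and rxrga. The median log2 fold change of the list was 0.11, against 0.01 over all tested genes. In direction, 23 of its members were higher (76.7%, against 51.3% of all tested genes). Some lists without any unadjusted p under 0.05 leaned as far: 77.8% of p53 targets, 81.8% of heat shock and stress genes and 89.3% of mitotic genes were higher. Others leaned the other way, such as neural crest specifiers with 30.4% higher. A share of this size thus does not set the retinoid list apart. This list, like all lists here, was chosen with earlier results of these data known, so such shares are no independent support. The 5 retinol and retinaldehyde dehydrogenases, among them aldh1a2, the main RA-synthesizing enzyme of the trunk mesoderm, had log2 fold changes between -0.03 and 0.13. Among 10 genes of retinol uptake, esterification and carriage the range was -0.18, for the cytoplasmic RA-binding protein gene crabp1b, to 0.64, for the retinol esterifying enzyme gene lrata, and none had an unadjusted p under 0.05. The 4 RA receptors had log2 fold changes between -0.16 and 0.14. The lowest, rarga, was at 93.2, 90.1, 87.7 and 92.0 CPM with DMSO and 77.0, 84.6, 87.2 and 75.5 CPM with TP-0903. These groups did not overlap, by a narrow margin between DMSO replicate 3 and TP-0903 replicate 3. At 4 h edgeR called rarga lower, with a log2 fold change of -0.73 (adjusted p = 0.012).

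Of the 6 retinoid X receptors, the partners of RA receptors on DNA, rxrga stood out. Its CPM was 8.75, 10.0, 10.8 and 11.6 with DMSO and 18, 21.1, 10.3 and 16.1 with TP-0903. TP-0903 replicate 3 fell inside the DMSO range, and the other treated libraries were above it. The log2 fold change was 0.67 (standard error 0.23), and edgeR's adjusted p was 1.00. The other 5 retinoid X receptors had log2 fold changes between -0.16 and 0.14. Of the same 30 members, edgeR called 5 higher and 3 lower at 4 h, where 0.74% of all tested genes passed.

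Of 12 tested members of a list of other RA-responsive genes, 4 had an unadjusted p under 0.05 (33.3%, against 1.38% of all tested genes). All 4 were higher. This list too was chosen with earlier results of these data known, so the share is no independent support. In direction, 8 of the 12 were higher (66.7%, against 51.3% of all tested genes), and the median log2 fold change was 0.31. For nrip1a, a nuclear receptor corepressor gene, the CPM was 25.7, 21.8, 26.5 and 18.5 with DMSO and 52.8, 78.1, 36.1 and 62.4 with TP-0903. TP-0903 replicates 2 and 4 were highest and replicate 3 lowest of the treated libraries. Its fitted log2 difference was 1.31 (standard error 0.24), and the adjusted p was 0.832 by edgeR and 0.00143 by DESeq2. The paralogue nrip1b had a log2 fold change of 0.56. The Hox cofactor gene meis2b was at 121, 116, 123 and 125 CPM with DMSO and 170, 193, 158 and 168 CPM with TP-0903. Both groups were tight, which placed a log2 fold change of 0.50 (standard error 0.11) among the DESeq2 calls (adjusted p = 0.00608). hnf1ba, a homeobox gene of the caudal hindbrain and kidney, rounded out these 4 genes with a log2 fold change of 0.48. The lowest of the list was mafba, a gene of posterior rhombomeres, at -0.16.

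Of the remaining DESeq2 calls, several code for transcription factors or for regulators of Wnt and planar polarity signaling. SLC22A3, the annotated symbol of an organic cation transporter, was at 13.7, 9.64, 10.2 and 15.3 CPM with DMSO and 35.3, 34.7, 22.8 and 32.3 CPM with TP-0903. The groups were apart, with TP-0903 replicate 3 nearest to DMSO, and the log2 fold change was 1.37 (standard error 0.21). The zinc finger genes znf503 and znf703, which belong to the NET family of repressors, had log2 fold changes of 1.02 (standard error 0.17) and 0.88 (standard error 0.17). For znf503 the CPM was 49.5, 50.3, 48.8 and 39.1 with DMSO and 92.8, 115, 69.8 and 104 with TP-0903. DMSO replicate 4 was lowest of the controls here, where it had been highest for cyp26a1.

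prickle1b, a core component of planar cell polarity, had the tightest controls of the group, at 112, 110, 114 and 115 CPM, against 201, 174, 178 and 170 CPM with TP-0903. Its log2 fold change of 0.68 (standard error 0.11) came with an adjusted p of 6.26e-07 by DESeq2 and 0.626 by edgeR. dact2, a modulator of Nodal and Wnt signaling, was at 118 ± 18.8 CPM (SD, n = 4) with DMSO and 191 ± 4.99 CPM (SD, n = 4) with TP-0903. tsc22d3, a glucocorticoid-responsive leucine zipper gene, was at 17.4 ± 1.44 CPM (SD, n = 4) and 28.9 ± 3.23 CPM (SD, n = 4). For rgmd, a member of the repulsive guidance molecule family, the difference was 0.47 on the log2 scale (standard error 0.12). Other genes met the size rule, but DESeq2 gave them no adjusted p and so could not call them. Of these, nr6a1b, an orphan nuclear receptor gene, had a log2 fold change of 1.4 and BX324132.5 of 1.4. That of miox, a myo-inositol oxygenase gene, was 1.23, and that of mxtx1, a homeobox gene of the yolk syncytial layer, was 0.92.

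The 1 h ranking was then followed into libraries that had no part in it. Of the 50 genes with the smallest p at 1 h, 35 were higher and 15 lower with TP-0903. In 46 of the 50 the groups did not overlap, against 1.49% of all tested genes, but the ranking used these same libraries. At 4 h 48 of the 50 genes were tested, and edgeR called 24 in the same direction (50.0%) and none in the opposite one. The share called among all 15953 genes at 4 h was 0.74%. The genes that had been higher carried this: 23 of 35 were called higher at 4 h, against 1 of 13 tested genes that had been lower. Of the 10 smallest p, 8 were called at 4 h, and of the 13 DESeq2 calls 11 were. At 8 h 22 of 47 tested genes were called in the same direction and 4 in the opposite one, where 28.9% of all genes passed. Ranking without DMSO replicate 4 and TP-0903 replicate 3 gave 29 genes called at 4 h in the same direction.

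The followed genes kept unequal sizes. cyp26a1 was at 48.1, 46.3, 45.6 and 39.6 CPM in the 4 h DMSO libraries and at 1012, 1021, 558 and 486 CPM in the 4 h TP-0903 libraries, a log2 fold change of 4.1 (adjusted p = 4.15e-05 by edgeR). The 4 h controls lacked the high library seen at 1 h. dhrs3b had a log2 fold change of 3.61 at 4 h, dhrs3a of 3.18 and nr6a1b of 2.75, and edgeR called all 3 higher. The log2 fold change of nrip1a was 1.31 at both times, that of znf503 was 1.02 at 1 h and 0.87 at 4 h, and that of dusp6 was 0.62 and 0.64. Of the 48 genes, 21 had a greater log2 fold change in the same direction at 4 h. The test of treatment by time called 0 of 16283 genes with edgeR (343 at an unadjusted p under 0.05), 0 with limma voom and 7 with DESeq2, dhrs3b among them. For dhrs3b the difference between the times was 2.12 on the log2 scale, with an adjusted p of 0.384 by edgeR. cp, the ceruloplasmin gene, was picked out after its values were seen: it was at 0.84 ± 0.48 CPM (SD, n = 4) and 2.81 ± 0.42 CPM (SD, n = 4) at 1 h, and its log2 fold change was 3.32 at 4 h.

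**Figure D2:**
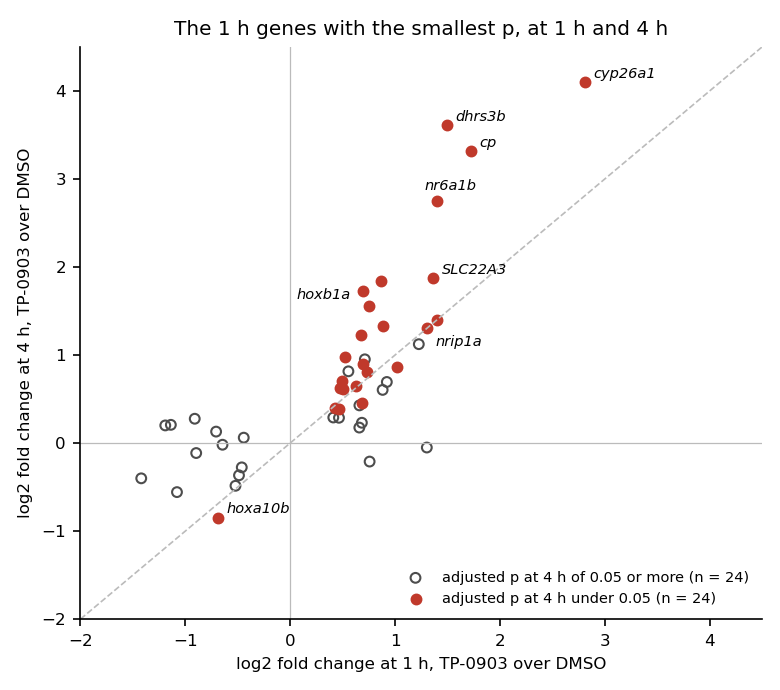
Log2 fold change of TP-0903 over DMSO at 1 h (x axis) and 4 h (y axis) for the 48 tested genes among the 50 with the smallest p at 1 h, filled red where edgeR called the gene in the same direction at 4 h (24 genes), with the dashed line marking equal change. Genes higher at 1 h lie mostly above 0 at 4 h, with cyp26a1 at 2.81 and 4.1, while 1 gene lower at 1 h, hoxa10b, was called lower at 4 h.

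Of the 13 DESeq2 calls at 1 h, edgeR did not call znf703 and rgmd at 4 h, where their log2 fold changes were 0.60 and 0.29. All 13, these included, were without overlap and higher with TP-0903 at 4 h too. The share of all genes without overlap at 4 h was not counted, so this adds no support for znf703 or rgmd. The treatment by time test called neither gene. The proneural gene neurog1 was at 20.7, 18.9, 21.0 and 16.1 CPM with DMSO and 35.1, 30.2, 27.0 and 29.2 CPM with TP-0903 at 1 h. These groups did not overlap, and the log2 fold change was 0.66 at 1 h and 0.43 at 4 h, not called at either time by edgeR. neurod4, a neuronal differentiation gene, had a log2 fold change of 0.46 at 1 h, and otx1a, a gene of the anterior brain, was the lowest neural marker at -0.26. Of 15 tested neural markers, only neurog1 and neurod4 had an unadjusted p under 0.05 (13.3%, against 1.38% of all tested genes). The list as a whole did not rise: 7 members were higher and 8 lower, with a median log2 fold change of -0.02. For mxtx1 and rps6ka1, a kinase gene of the ERK pathway, the 8 h groups stood apart in the opposite direction. At 1 h the mxtx1 groups were apart by a narrow margin only, with DMSO replicate 4 at 8.20 CPM and TP-0903 replicate 4 at 8.21 CPM.

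Hox genes at the 2 ends of the clusters lay on opposite sides of 0 at 1 h. All 4 tested genes of paralogue group 1 were higher, with a median log2 fold change of 0.70. All 10 tested genes of groups 10 to 13 were lower, and the medians were -0.30 for group 10 and -0.54 for group 11. Over all tested genes, 51.3% were higher. hoxb1b, which acts early in hindbrain patterning, was at 65.7, 69.1, 72.2 and 73.5 CPM with DMSO and 103, 147, 92.3 and 130 CPM with TP-0903. The groups did not overlap, and TP-0903 replicates 1 and 3 were the lower of the treated libraries. Its fitted log2 difference was 0.75 (standard error 0.16), and the adjusted p was 0.039 by DESeq2. hoxb1a, which specifies rhombomere 4, was at 26.2, 27.4, 26.5 and 43.6 CPM with DMSO and 50.9, 47.6, 56.9 and 44.5 CPM with TP-0903. DMSO replicate 4 lay just under the lowest treated library, and the log2 fold change was 0.70 (standard error 0.19). hoxc1a and hoxa1a had log2 fold changes of 0.71 and 0.55 with overlap between the groups.

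Of all 17 tested genes of groups 1 to 5, 2 had an unadjusted p under 0.05, hoxb1a and hoxb1b. This was 11.8%, against 1.38% of all tested genes. The median log2 fold change of the 17 was 0.11. hoxb5b was at 54.5, 58.3, 55.7 and 39.1 CPM with DMSO and 46.7, 95.4, 33.7 and 82.1 CPM with TP-0903. The treated libraries split into 2 high and 2 low ones, and the latter were below most controls. Its log2 fold change was 0.31 (standard error 0.31) at 1 h and 1.66 at 4 h (adjusted p = 0.0149 by edgeR). hoxc5a showed the same split more strongly, at 51.2, 57.0, 54.6 and 8.99 CPM with DMSO and 22.8, 40.5, 9.71 and 45.4 CPM with TP-0903. In 14 of the 17 genes DMSO replicate 4 was the lowest control and TP-0903 replicate 3 the lowest treated library, against 28.5% of all tested genes. In groups 6 to 8, hoxb8b was the highest of 8 members at a log2 fold change of 0.49, and hoxc6a the lowest at -0.41.

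Of the 15 tested genes of groups 9 to 13, 14 were lower, with a median log2 fold change of -0.41. The share higher was 6.67%, against 51.3% of all tested genes. An unadjusted p under 0.05 was found in 4, all lower (26.7%, against 1.38% of all tested genes in either direction). hoxa10b was at 34.2, 34.7, 29.4 and 30.7 CPM with DMSO and 18.6, 19.3, 25.0 and 17.1 CPM with TP-0903. All treated libraries were below the controls, and TP-0903 replicate 3 was nearest to them. The fitted log2 difference was -0.69 (standard error 0.15), and the adjusted p was 1.00 by edgeR and 0.0694 by DESeq2. hoxd12a was at 11.5, 12.6, 8.39 and 7.67 CPM with DMSO and 7.39, 5.85, 7.56 and 7.66 CPM with TP-0903, which did not overlap by the margin between DMSO replicate 4 and TP-0903 replicate 4. hoxc11a and hoxa13b, genes of the posterior end, had log2 fold changes of -0.55 and -0.87 at low levels, under 6 CPM in every library. The exception in direction was hoxb9a, at 0.10. Without DMSO replicate 4 and TP-0903 replicate 3, 9 of the 15 had an unadjusted p under 0.05, all lower, against 1.15% of all tested genes. The summed CPM of the list was 442 in TP-0903 replicate 3 and 349 to 358 in the other treated libraries. Leaving out this highest treated library favors lower values, and the count was added after seeing the data. It is therefore no independent support. At 4 h edgeR called 9 of the 15 lower and none higher, where 0.244% of all tested genes were called lower.

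**Figure D3:**
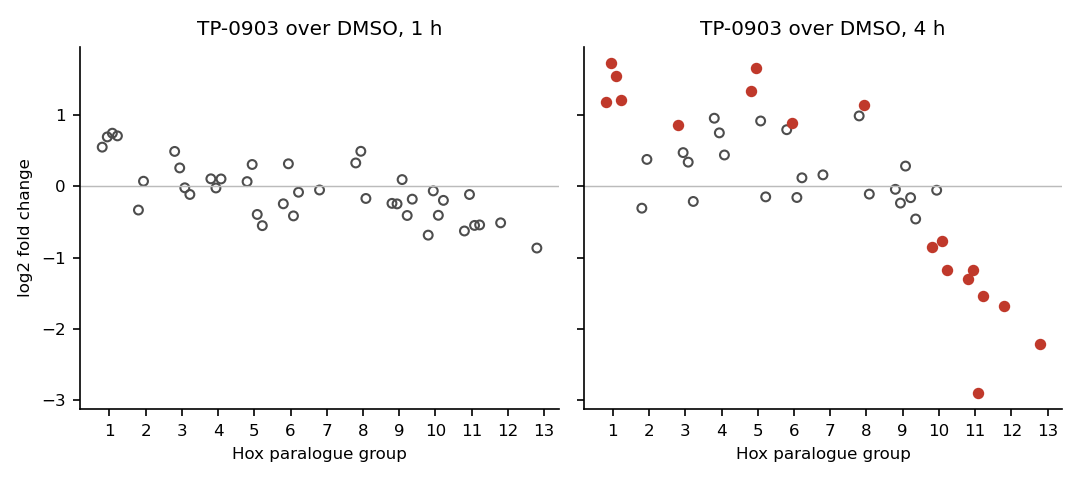
Log2 fold change of TP-0903 over DMSO for the 40 tested Hox genes by paralogue group at 1 h (left) and 4 h (right), each point 1 gene, filled red where edgeR's adjusted p was under 0.05. No gene is filled at 1 h, where the median of group 1 was 0.70 and the 1 tested gene of group 13 was at -0.87. Medians of the groups between were not in order, with -0.13 in group 2 and 0.33 in group 8. At 4 h 18 genes are filled, where 0.74% of all tested genes were called, with hoxc11a lowest at -2.90. Of the 18, 7 of groups 1 to 5 and 2 of groups 6 to 8 were higher, and 9 of groups 9 to 13 were lower.

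Among 19 tested FGF and ERK feedback genes, 2 had an unadjusted p under 0.05 (10.5%, against 1.38% of all tested genes), and both were higher. One of them, dusp6, the phosphatase that limits ERK, was at 290, 252, 260 and 343 CPM with DMSO and 472, 429, 484 and 380 CPM with TP-0903. All treated libraries were above the controls. The fitted log2 difference was 0.62 (standard error 0.14), and the adjusted p was 0.05 by DESeq2 after rounding, just inside its threshold. fgf17, an FGF ligand of the midbrain-hindbrain boundary and tailbud, was at 17.5, 21.9, 17.7 and 21.9 CPM with DMSO and 31.0, 34.8, 21.7 and 39.4 CPM with TP-0903. TP-0903 replicate 3 lay within the DMSO range, and edgeR called the gene higher at 4 h (log2 fold change 1.22). The ligand gene fgf8a had a log2 fold change of 0.50, and the other ERK feedback genes lay between -0.42, for spry1, and 0.18, for il17rd, with a list median of 0.04.

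Of 27 tested immediate early genes, 3 had an unadjusted p under 0.05 (11.1%, against 1.38% of all tested genes). Those higher were klf6a and klf2b, Krüppel-like factors, with log2 fold changes of 0.36 and 0.29. The lower one, dusp2, a nuclear phosphatase of ERK, was at 7, 6.01, 8.62 and 7.14 CPM with DMSO and 2.03, 2.87, 6.44 and 2.01 CPM with TP-0903, or -1.06 on the log2 scale (standard error 0.38). TP-0903 replicate 3 was within the control range for dusp2, and the other 3 treated libraries were below it. The median of the list was 0.01. None of the 13 JAK-STAT feedback genes had an unadjusted p under 0.05. At 1.38% over all tested genes, a list of this size is not set apart by having none. Their log2 fold changes ranged from -0.47, for BCL6B, to 0.08, for stat5.1. Lower without overlap was 1 of the 13, against 0.702% of all tested genes. The genes of 6 kinases named as targets of TP-0903 had log2 fold changes between -0.20, for abl1, and 0.11, for aurka. The 28 mitotic genes ranged from -0.07, for cenpe, to 0.29, for nuf2, with a median of 0.08.

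The aryl hydrocarbon receptor is a ligand-activated transcription factor of xenobiotic metabolism. All 7 tested genes of its list, the receptor gene ahr2 among them, had log2 fold changes above 0. Over all tested genes, 51.3% were higher. All 12 periderm and epidermal markers and all 4 tested hatching gland markers were higher too, so the shared direction does not set this list apart. tiparp, a feedback regulator of this receptor, was at 65.0, 49.1, 58.3 and 54.5 CPM with DMSO and 74.9, 98.7, 64.0 and 88.1 CPM with TP-0903. TP-0903 replicate 3 was just inside the control range, the log2 fold change was 0.52 (standard error 0.16), and edgeR called the gene higher at 4 h (log2 fold change 0.98). foxq1b was at 0.25, 1.13, 0.88 and 2.38 CPM with DMSO and 3.10, 2.53, 1.53 and 2.92 CPM with TP-0903. At this depth such levels rest on few reads, and the groups overlapped. For cyp1a, the classical target, the CPM was 4.5, 2.63, 3.09 and 30.1 with DMSO and 8.35, 2.53, 35.8 and 2.92 with TP-0903. It followed the libraries and not the treatment, with DMSO replicate 4 and TP-0903 replicate 3 highest in their groups. Both libraries were highest in their groups in 4 of the 7 genes (57.1%, against 27.7% of all tested genes). The receptor gene ahr2 was lowest of the list at 0.08.

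**Figure D4:**
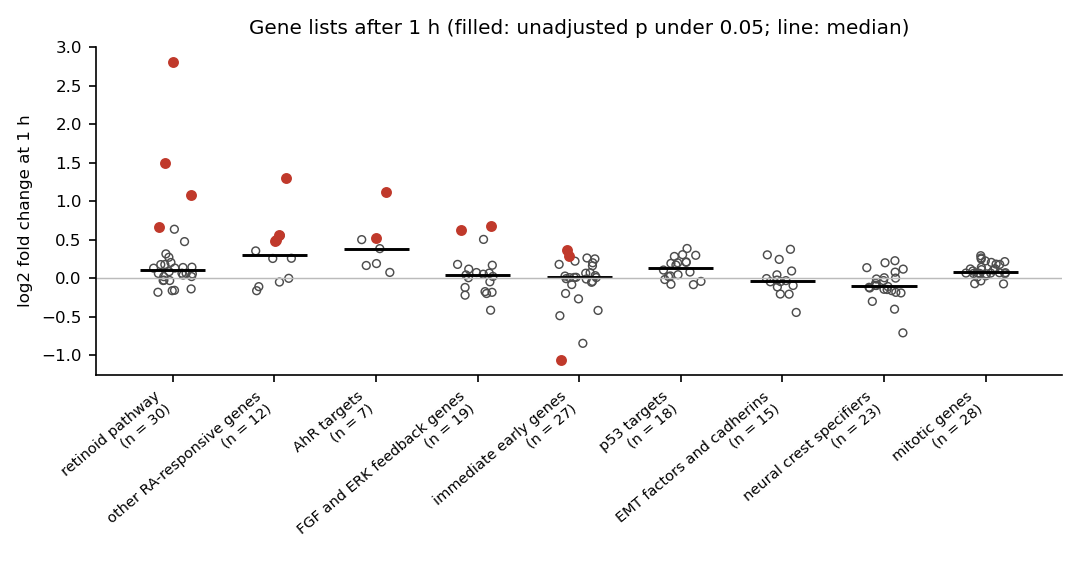
Log2 fold change at 1 h of each tested member of 9 gene lists, filled red where the unadjusted p of edgeR was under 0.05, with a black line at the median of the list. The 4 highest filled points of the retinoid pathway are cyp26a1 (2.81), dhrs3b (1.49), dhrs3a (1.08) and rxrga (0.67). No member of the p53, EMT, neural crest and mitotic lists is filled, where 1.38% of all tested genes had such a p.

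EMT and neural crest genes showed no member with an unadjusted p under 0.05 at 1 h. Over all tested genes the share was 1.38%, so lists of this size are not set apart by having none. The 15 tested EMT factors and cadherins ranged from -0.44, for zeb2b, to 0.38, for snai1b, with a median of -0.03. snai1b was at 5.50, 5.13, 6.19 and 7.40 CPM with DMSO and 9.06, 7.92, 8.17 and 5.84 CPM with TP-0903. TP-0903 replicate 4 was inside the control range and the other treated libraries were above it. The 23 tested neural crest specifiers ranged from -0.71, for sox8b, to 0.23, for ETS1, with a median of -0.09. Higher without overlap was 1 of the 23, against 0.786% of all tested genes. At 4 h edgeR called cdh6, a cadherin gene, and dlx2a, a homeobox gene of the pharyngeal arches, both lower. This was 1 of the 15 EMT factors and cadherins and 1 of the 23 specifiers, where 0.244% of all tested genes were called lower.

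Posterior and hindbrain patterning genes gave a few lower values. An unadjusted p under 0.05 was found in 1 of 28 tailbud genes (3.57%) and 1 of 11 hindbrain genes (9.09%), against 1.38% of all tested genes. In 20 of the 28 tailbud genes DMSO replicate 4 and TP-0903 replicate 3 were both highest in their groups (71.4%, against 27.7% of all tested genes). How far this spread between libraries entered the values of these genes was not tested. irx7, an anterior hindbrain homeobox gene, was at 18, 15.9, 20.1 and 27.2 CPM with DMSO and 12.8, 10.6, 17.2 and 11.3 CPM with TP-0903, or -0.64 on the log2 scale (standard error 0.22). TP-0903 replicate 3 overlapped the controls, and edgeR called irx7 lower at 4 h (log2 fold change -0.81). tbx6l, a T-box gene of the tailbud, was at 84.5, 81.0, 85.5 and 78.5 CPM with DMSO and 65.2, 72.1, 64.3 and 67.1 CPM with TP-0903. Its groups did not overlap, at a small log2 fold change of -0.29 (standard error 0.10). nkx1.2la, a homeobox gene of tailbud progenitors, was at 33.0, 32.4, 37.3 and 31.7 CPM with DMSO and 14.7, 15, 39.7 and 17.3 CPM with TP-0903. TP-0903 replicate 3 was above all controls, and the other 3 treated libraries lay far below them. Over all 8 libraries its log2 fold change was -0.63 (standard error 0.31), and at 4 h it was -3.00 (adjusted p = 3.91e-04 by edgeR). In the tailbud list the highest value was 0.68, for mespba, and in the hindbrain list 0.25, for tshz1. Segmentation clock genes ranged from -0.33, for her7, to 0.29, for her6. None of them had an unadjusted p under 0.05, against 1.38% of all tested genes.

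p53 and its targets varied widely between libraries of 1 treatment at 1 h, more than any other list with DMSO and second to hatching gland markers with TP-0903. Their summed CPM was 1334, 1935, 2788 and 6153 in DMSO replicates 1 to 4 and 3177, 2070, 6524 and 1834 in TP-0903 replicates 1 to 4. The highest library exceeded the lowest by 4.61-fold with DMSO and by 3.56-fold with TP-0903, and DMSO replicate 4 and TP-0903 replicate 3 were highest. At 4 h the sums were between 1720 and 2311 CPM with DMSO and between 1438 and 2884 CPM with TP-0903. In 17 of the 18 tested members both libraries were highest in their groups, against 27.7% of all tested genes. How far this variation entered the treatment comparison was not tested.

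ccng1, a cyclin G gene and p53 target, was at 530, 919, 1417 and 3477 CPM with DMSO and 1678, 970, 3627 and 865 CPM with TP-0903. casp8, which initiates apoptosis, was at 6.50, 16.0, 36.9 and 131 CPM with DMSO and 38.4, 21.6, 128 and 14.4 CPM with TP-0903, and had the highest loading on the component among genes of at least 20 CPM. mdm2, which targets p53 for degradation, was at 82.2, 101, 151 and 302 CPM with DMSO and 149, 98.3, 299 and 81.0 CPM with TP-0903. In each of these genes the order of the libraries was alike, and the ranges of the groups overlapped almost fully. The cell cycle inhibitor gene cdkn1a ranged from 10.7 to 47.8 CPM with DMSO and from 15.7 to 57.4 CPM with TP-0903. The median log2 fold change of the list was 0.14, from -0.08, for sesn2, to 0.39, for gadd45ab. None of the 18 members had an unadjusted p under 0.05. At 1.38% over all tested genes, a list of this size is not set apart by having none.

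**Figure D5:**
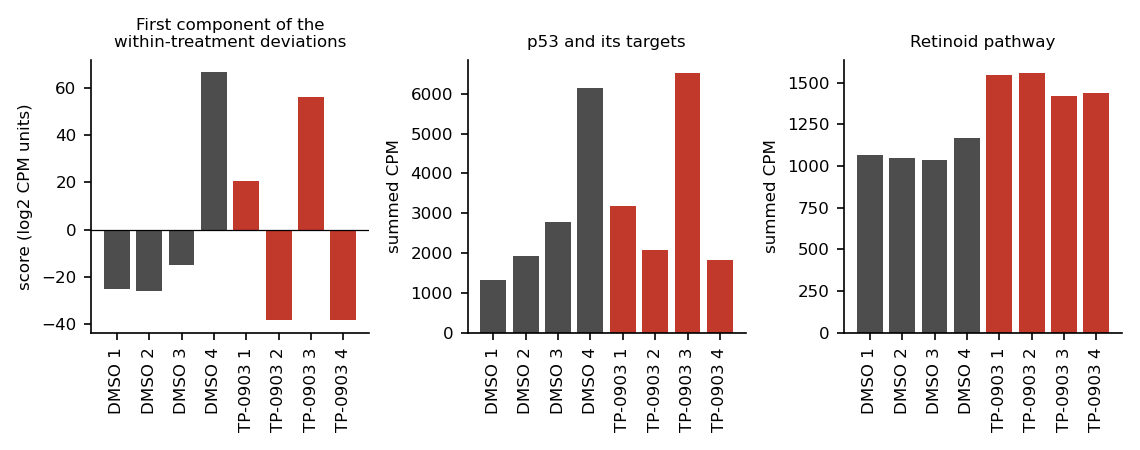
Score of each 1 h library on the first component of the within-treatment deviations (left), summed CPM of p53 and its targets (middle) and summed CPM of the retinoid pathway list (right), DMSO in grey and TP-0903 in red. The p53 sum follows the score, up to 6153 CPM in DMSO replicate 4 and 6524 CPM in TP-0903 replicate 3, while the retinoid sum separates the treatments (1037 to 1169 CPM against 1419 to 1558 CPM), mostly through cyp26a1: without it the sums are 994 to 1076.5 CPM and 1075.6 to 1125 CPM and overlap.

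Markers of some tissues moved along the same axis. Summed over 5 hatching gland markers, the CPM was 138, 142, 145 and 490 with DMSO and 357, 131, 538 and 156 with TP-0903. For 11 yolk syncytial layer markers the sum was between 6355 and 12705 CPM with DMSO and between 6465 and 11282 CPM with TP-0903, and for 12 periderm and epidermal markers between 12909 and 20537 CPM and between 12723 and 20010 CPM. In these lists DMSO replicate 4 and TP-0903 replicate 3 were again the highest libraries of their groups. The sum of the 16 neural markers, in contrast, stayed between 1257 and 1338 CPM in all 8 libraries. Yet for 8 of the 15 tested members, DMSO replicate 4 and TP-0903 replicate 3 were lowest in their groups (53.3%). Over all tested genes this share was 28.5%. For 2 members both libraries were highest (13.3%, against 27.7% of all tested genes). The even sum thus does not mean that each member was even. None of the tissue marker lists other than the neural one had a member with an unadjusted p under 0.05 by treatment. Over all tested genes this share was 1.38%. The highest and lowest log2 fold changes were 0.60 (he1b) and 0.30 (he1a) in the hatching gland, 0.48 (rbp4) and -0.30 (mtp) in the yolk syncytial layer, 0.39 (cyt1l) and 0.08 (krt5) in the epidermis, 0.21 (actc1b) and -0.12 (mef2d) in muscle, 0.26 (alas2) and -0.11 (gata1a) in erythroid cells, 0.16 (etv2) and -0.42 (cdh5) in endothelium, and 0.28 (shhb) and -0.18 (ntla) in the notochord. Heat shock and stress genes ranged from -0.22 (atf4b1) to 0.63 (hsp90aa1.2). Only 3 of the 7 erythroid markers found passed the filter on low counts. How far these tissues entered the treatment comparison was not tested.

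Lower genes were fewer among the leading ones. Copies of Metazoa_SRP, the RNA of the signal recognition particle that directs secretory proteins to the endoplasmic reticulum, made up 3 of the 10 lowest differences without overlap. Their log2 fold changes were -1.42, -1.19 and -0.91. Of all 41 tested copies 40 were lower, where 51.3% of all tested genes were higher, and the median log2 fold change of the copies was -0.42. Lower with an unadjusted p under 0.05 were 9 copies, against 0.657% of all tested genes. Summed over the copies, the CPM was 4710, 4166, 4341 and 5197 with DMSO and 2340, 4085, 2236 and 4426 with TP-0903. TP-0903 replicates 1 and 3 were far below the controls, replicate 2 was just below them and replicate 4 was within their range. At 4 h the median was 0.21 and edgeR called none of 39 tested copies. The sequences of the copies were not compared here. Where copies are alike, how reads were divided among them is uncertain, and the copies cannot be counted as independent genes.

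Of the other genes of that group, all but hoxa10b were under 11 CPM in every library. FIG4 (1 of 2), a phosphoinositide phosphatase gene, had a log2 fold change of -0.90, ENSDARG00000067760 of -0.80, tp73, a relative of p53, of -0.78, szl, a feedback inhibitor of BMP signaling, of -0.71, hoxa10b of -0.69, zgc:152951 of -0.67 and rps6ka1 of -0.65. Of these, hoxa10b alone was called at 4 h by edgeR, and szl was not tested there. Over all tested genes, 122 were higher without overlap (0.786%) and 109 lower (0.702%). These counts rose to 671 and 651 without DMSO replicate 4 and TP-0903 replicate 3, when 3 libraries were left in each group.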

How the data were processed

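The authors prepared ribosome-depleted stranded libraries (TruSeq Stranded Total RNA with Ribo-Zero), sequenced single reads, aligned them with Novoalign (version 2.08.03 in the submitters' processing notes) to zv9 and counted them on Ensembl genes with USeq. The counts the authors deposited are raw counts per gene. The deposited FPKM values relate a count to the length of the gene and the depth of the library. The deposited log2 fold changes and FDR scores, from the authors' DESeq2 comparison (version 1.4.5 in the processing notes), were not used.

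The 16361 genes of the 1 h table were filtered with filterByExpr and, after TMM normalization, tested in R 4.3.3 with edgeR 4.0.16 (estimateDisp, glmQLFit, glmQLFTest) on the 8 libraries without covariates. Benjamini-Hochberg adjusted p-values under 0.05 over all tested genes were called. The standard error is the absolute log2 fold change divided by the square root of F. DESeq2 1.42.0 and limma 3.58.1 were alternatives. Components used log2 CPM with a prior count of 2. The 4 h and 8 h tables were fitted apart. Total counts from 3879310 to 10536420 set the precision of low genes. The study names 4 biological replicates per condition, and p-values measure the spread between these pools.

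The groups of genes came from 26 lists of 445 symbols, of which 402 were found and 383 tested. The members and lists were chosen with earlier results of these data known. Named genes were those that the study names for its RNA-Seq and the tables used here hold, the 10 smallest p, the 10 highest and 10 lowest log2 fold changes without overlap at a mean of at least 5 CPM in 1 group, DESeq2 calls, list members with an unadjusted p under 0.05, the extremes of each list, and the 5 highest and 5 lowest loadings at a mean of at least 20 CPM. Some genes were not analysed here. A planned count of promoter motifs was not run, since no promoter sequence was used here, and coordinates are not given. The edgeR, DESeq2 and limma voom tests at 1 h and 4 h were tested on simulated data. There DESeq2 made more false calls than edgeR or limma voom at 1 h and at 4 h. The edgeR test, used to follow genes at 4 h, made some false calls as well. How the tools behave when libraries differ along a shared component, as at 1 h, was not tested.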

Additional observations from a re-analysis of the deposited data

Results flagged for a closer look

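Of 230 groups of 4 libraries checked (total count, 26 list sums and 88 named genes, DMSO and TP-0903 apart), 29 had a highest or lowest library far from the other 3, or 12.6%. Chance gives about 1 in 20 where groups are independent. These groups share the same libraries and many genes were picked by their values, so the share is not a test against chance. In 20 of the 29 the library was DMSO replicate 4. It was far above the other controls for cyp26a1 (92.3 CPM), dhrs3a (24.3 CPM), hoxb1a (43.6 CPM), her6 (122.9 CPM), nuf2 (56.6 CPM), ntla (125 CPM) and he1a (229 CPM). It was far below them for znf503 (39.1 CPM), hoxc6a (25.1 CPM), hoxc5a (8.99 CPM), abl1 (34.9 CPM), mafba (23.3 CPM), atf4b1 (236 CPM) and cenpe (326 CPM). Its sums stood apart for mitotic genes (4631 CPM), endothelial markers (241 CPM), periderm and epidermal markers (20537 CPM), hatching gland markers (490 CPM), yolk syncytial layer markers (12705 CPM) and, below the others, other RA-responsive genes (826 CPM). TP-0903 replicate 3 stood apart for ntla (119 CPM), nkx1.2la (39.7 CPM) and the sum of Hox groups 9 to 13 (442 CPM).

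The remaining libraries that stood apart were DMSO replicate 2 in total count (7663030), DMSO replicate 3 for ETS1 (5.08 CPM) and the sum of notochord markers (607 CPM), TP-0903 replicate 1 for gata1a (8.82 CPM), TP-0903 replicate 2 for hoxd12a (5.85 CPM) and TP-0903 replicate 4 for hoxb8b (3.83 CPM). For mxtx1 the log2 fold change was 0.92 at 1 h and -0.91 at 8 h, and for rps6ka1 it was -0.65 at 1 h and 0.62 at 8 h, each without overlap between the groups at either time. The difference between these times was not tested. The mxtx1 margin at 1 h was narrow, with DMSO replicate 4 at 8.20 CPM and TP-0903 replicate 4 at 8.21 CPM.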

How the results depend on the processing

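The count of calls at 1 h changed with the tool and the samples: 0 with edgeR, 13 with DESeq2, 1 with limma voom, 26 with voom quality weights, 7 and 13 with 1 fit over the 1 h and 4 h libraries and over all 24, 30 with the within-treatment component as a covariate, 5 without DMSO replicate 4 and TP-0903 replicate 3, 1 after thinning to the smallest total, and 0 to 2 when 1 library was left out (2 without DMSO replicate 4). The cause was not tested. Genes without overlap were 671 higher and 651 lower without both libraries, and 200 to 514 higher and 163 to 478 lower without 1, where fewer libraries make overlap rarer. Among the 20 smallest p, 14 were called at 4 h. With 1 library left out of the 1 h ranking, 17 to 30 of the 50 genes ranked anew were called at 4 h. The test of treatment by time called 7 genes with DESeq2. The median of hindbrain patterning was -0.18 without both libraries, against -0.10. Counts of list members without both libraries or with the covariate, and the retinoid sum without cyp26a1 (a difference of 76.3 CPM, against 410 CPM with it), were added after seeing the data.

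Of 1841 values of 88 named genes under alternatives, 22 changed direction, in 15 genes. With quality weights these were hsp90aa1.2 (-0.44), shhb (-0.33), etv2 (-0.076), aurka (-0.029) and krt5 (-0.0077), and after thinning stat5.1 (-0.086). With 1 library left out the ranges were -0.33 to 0.90 for hsp90aa1.2, -0.10 to 0.50 for shhb, -0.49 to 0.056 for ntla, -0.11 to 0.41 for actc1b, -0.41 to 0.0097 for abl1, -0.016 to 0.25 for aurka, -0.0033 to 0.15 for ahr2, -0.15 to 1.09 for he1a, -0.15 to 0.46 for etv2, -0.39 to 0.0066 for mafba, -0.032 to 0.36 for hoxb9a, -0.23 to 0.075 for cenpe and -0.38 to 0.031 for sesn2.

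Deviations of same-numbered libraries correlated at -0.22, 0.60, -0.36 and -0.73, and 1 of 4 DMSO libraries correlated best with its own number. With 4 libraries per treatment and most of the deviations in 1 component, these values cannot decide whether replicate numbers marked a shared batch. The replicate block called 0 genes at 1 h (129 at an unadjusted p under 0.05) and 0 in the test of treatment by time. With the block in both fits, 27 of the 50 genes ranked anew at 1 h were called at 4 h. The planned promoter motif count was not run.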
